A study of Mus musculus with 20 samples.

Results

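The 40 genes described here are immediate early genes and heat shock genes, taken by symbol from a list and found among the 46078 gene IDs of the deposited table. They comprise 7 AP-1 and related leucine zipper factors (Fos, Fosb, Jun, Junb, Jund, Maff and Atf3) and 10 other transcription factors (Egr1, Egr2, Egr3, Nr4a1, Nr4a2, Klf2, Klf4, Klf6, Myc and Csrnp1). A further 8 are phosphatases and other feedback genes (Dusp1, Dusp2, Dusp5, Dusp6, Socs3, Ppp1r15a, Zfp36 and Zfp36l1). Another 7 are Ier2, Ier3, Ier5, Btg1, Btg2, Gadd45b and Rhob, and 8 are chaperones (Hspa1a, Hspa1b, Hspa8, Hsp90aa1, Hsph1, Dnajb1, Hspe1 and Hspd1). Of the 40 genes, 37 had a mean of at least 1 TPM (an abundance scaled to the same total in every library and corrected for gene length) over all libraries and were tested. Egr2, Egr3 and Atf3 did not reach that mean.

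Immediate early genes are transcribed within minutes of a stimulus, before any new protein is made. Growth factors, cytokines and stress reach them through MAP kinases, which act on serum response factor with its ternary complex partners and on CREB, and their transcripts are short-lived. Many of the products are transcription factors, and others shut the signal off again. The heat shock genes are a separate branch, driven by heat shock factor HSF1 when proteins unfold, and they encode chaperones. In blood-forming tissue both branches are known to respond to cytokines and to the handling of cells during isolation.

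The cells were mouse bone marrow LSK cells (Lin-cKit+Sca1+), the lineage-negative fraction with cKit and Sca1 at its surface that holds stem cells and multipotent progenitors. All mice were C57Bl/6J, 3 to 4 months old, and the RNA of 2 mice was pooled for every library. Each of the 5 groups had 4 such pools (n = 4). WT mice were +/+;Vav-Cre. Idh1R132H, Idh2R140Q and Idh2R172K mice each carried 1 LSL allele (a stop cassette that Cre removes) of the mutation with Vav-Cre, which is active throughout the blood system. Tet2KO mice were Tet2-/-, with no Cre in their label, so the WT controls carry a Cre that the Tet2KO mice are not stated to carry. IDH mutants make 2-hydroxyglutarate, which inhibits 2-oxoglutarate-dependent enzymes such as TET2. The 5 groups therefore allow each mutant to be set against WT and the mutants against each other.

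The 10 LSK markers were present in all libraries, with Kit at 97.9 to 636 TPM, Ly6a (Sca1) at 115 to 350 TPM and Cd34 at 323 to 597 TPM. Their sum was 1406 to 2440 TPM in Tet2KO and 1723 to 2094 TPM in WT. Tet2KO held the lowest Kit (97.9 to 456 TPM, WT 335 to 427) and Cd34 (323 to 545 TPM, WT 463 to 529). It also held the highest Ly6a (271 to 350 TPM, WT 149 to 185). Rebuilt depths were 35.1 to 45.0 M (1e6) assigned reads. The libraries numbered 4 of WT and of the 3 Idh groups stand apart. Their most abundant gene, Gm23935, held 7.55 to 8.13% of the TPM, against 9.57 to 13.5% in the other libraries except Tet2KO number 2, where it held 20.0%. Across the 14176 genes tested, number 4 was the highest of its group for 56.9% of genes in WT, 63.5% in Idh1R132H, 61.0% in Idh2R140Q and 53.8% in Idh2R172K. The labels do not say whether a number stands for a litter, a sort day or a run. Results that rest on these libraries are given with and without them. In WT and the Idh groups numbers 2 and 4 carried Ddx3y, a Y-linked gene, and numbers 1 and 3 carried Xist, whereas in Tet2KO numbers 1 and 2 carried Ddx3y. Transcripts of the mutated genes are present in all groups, with Tet2 at 5.74 to 12.1 TPM in Tet2KO and 6.67 to 9.23 TPM in WT, which does not by itself check the knockout, since the labels do not say which part of Tet2 was removed.

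Promoter sequence was available for 34 of the 40 genes, from RefSeq on GRCm38.p6. The 250 bases before each start were searched on both strands for motifs of the pathways named above, and the share over 32536 distinct mouse promoters of the same length is given beside each count. A gene counts if any of its listed promoters matches, while the share is per promoter, so count and share differ in unit. Bases further upstream were not searched. The CArG box, the element read by serum response factor, was found in 3 of the 34 (Egr2, Dusp5 and Zfp36) and in 1.48% of all promoters. The cAMP response element TGACGTCA was found in 4 (Dusp1, Btg2, Maff and Ppp1r15a) and in 1.56% of all promoters. A heat shock element, searched as GAANNTTCNNGAA or TTCNNGAANNTTC, was found in 2 (Hspe1 and Hspd1) and in 0.47% of all promoters. The STAT element TTCNNNGAA was found in 2 (Zfp36 and Socs3) and in 7.04% of all promoters. The TATA box TATAAA was found in 5 (Fos, Nr4a2, Btg1, Zfp36l1 and Gadd45b) and in 12.3% of all promoters. The heat shock elements of Hspe1 and Hspd1 are the same stretch, since these 2 genes lie head to head and share their promoter. Such a match is a description of the letters and does not show that a factor binds there.

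Stretches upstream of 7 genes are shown because the values below turn on these genes or because they carry the motif of their branch, each read 5′ to 3′ on the gene's own strand with the motif in capitals. For Fos, at chr12:85473730-85473889 (+), the capitals mark the TATA box. For Zfp36, at chr7:28379267-28379296 (-), and Dusp5, at chr19:53528985-53529108 (+), they mark CArG boxes, of which Dusp5 has 2 side by side.
Fos: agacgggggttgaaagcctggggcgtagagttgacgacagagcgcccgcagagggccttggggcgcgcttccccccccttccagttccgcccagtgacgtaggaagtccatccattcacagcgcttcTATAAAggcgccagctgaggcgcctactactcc
Zfp36: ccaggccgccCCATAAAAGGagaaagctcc
Dusp5: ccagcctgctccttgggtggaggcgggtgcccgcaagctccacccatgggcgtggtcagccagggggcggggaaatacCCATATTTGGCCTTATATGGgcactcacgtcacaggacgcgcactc
For Dusp1, at chr17:26508520-26508632 (-), and Ppp1r15a, at chr7:45526269-45526329 (-), the capitals mark the cAMP response element.
Dusp1: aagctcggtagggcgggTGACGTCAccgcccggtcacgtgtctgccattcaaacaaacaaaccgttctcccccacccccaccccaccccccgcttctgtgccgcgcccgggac
Ppp1r15a: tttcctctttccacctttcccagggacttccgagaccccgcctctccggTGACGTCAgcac
For Hspe1, at chr1:55088053-55088082 (+), the capitals mark 2 overlapping heat shock elements, and for Socs3, at chr11:117969367-117969526 (-), the STAT element.
Hspe1: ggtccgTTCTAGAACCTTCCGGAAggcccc
Socs3: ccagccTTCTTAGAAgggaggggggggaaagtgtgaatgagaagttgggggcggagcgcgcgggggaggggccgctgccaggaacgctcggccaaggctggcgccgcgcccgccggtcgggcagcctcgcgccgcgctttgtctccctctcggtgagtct

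By mean TPM over the 20 libraries the most abundant of the 40 genes were Hspa8, the constitutive HSC70 chaperone (701 TPM), Myc (589 TPM), Hspd1, the mitochondrial chaperonin HSP60 (392 TPM), Hsp90aa1 (300.3 TPM) and Ier2 (281 TPM). The least abundant tested gene was Klf4, with a mean of 1.24 TPM, and the first below the limit was Atf3 with 0.379 TPM. These levels are per length, but comparison between genes is limited where a gene shares exonic bases with another gene model. Jund, Zfp36l1 and Dusp5 are among such genes. The strand setting of the counting is not given, so how reads from shared bases were assigned is not known.

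The immediate early genes varied widely between libraries of 1 group. In WT and the Idh groups the library numbered 4 had several times the level of its 3 companions for Fos, Jun, Junb, Dusp1, Zfp36 and others. Fos (chr12:85473890-85477273, + strand, mm10) encodes the c-Fos subunit of AP-1. Its TPM in libraries 1 to 4 was 38.2, 17.7, 13.4 and 361 in WT, 26.3, 29.4, 20.9 and 445 in Idh1R132H, and 81.5, 69.5, 44.2 and 488 in Idh2R140Q. In Idh2R172K it was 55.5, 52.4, 61.9 and 167, and in Tet2KO 190.0, 379, 231 and 832. Number 4 was the highest library of every group, and numbers 1 to 3 of Tet2KO all lay above numbers 1 to 3 of the other 4 groups. The ratio of number 4 to the mean of the other 3 was 15.6 in WT, 17.4 in Idh1R132H, 7.503 in Idh2R140Q, 2.95 in Idh2R172K and 3.12 in Tet2KO.

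Jun (chr4:95049034-95052222, - strand), which encodes the c-Jun partner of c-Fos, was likewise highest in number 4 of every group. Its TPM was 28.8, 19.01, 18.8 and 247 in WT, 34.6, 31.4, 30.0 and 308 in Idh1R132H, and 48.3, 55.9, 35.3 and 379 in Idh2R140Q. In Idh2R172K it was 86.0, 85.9, 58.0 and 359, and in Tet2KO 171, 150, 209 and 296. Number 4 thus lay between 247 and 379 TPM in all 5 groups, while numbers 1 to 3 spread from 18.8 TPM in WT to 209 TPM in Tet2KO. Dusp1 (chr17:26505590-26562128, - strand) encodes a phosphatase that switches off MAP kinases. Its TPM was 30.9, 20.6, 30.0 and 165 in WT, 31.5, 30.6, 35.3 and 235 in Idh1R132H, and 45.5, 55.6, 30.9 and 294 in Idh2R140Q. In Idh2R172K it was 45.7, 62.8, 58.3 and 183, and in Tet2KO 107, 110, 107 and 223. Zfp36 encodes tristetraprolin, which binds and destabilises messenger RNAs of other early genes. Its number 4 libraries stood at 395 TPM in WT against 86.7 to 103 TPM in numbers 1 to 3, and at 552 TPM in Tet2KO against 279 to 309 TPM.

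A test for any difference between the 4 numbers, with the group held in the fit, was run on log2(TPM + 1), the scale of every log2 value given here (limma, Benjamini-Hochberg over all genes). At an adjusted p under 0.05, the rule for a call, it called 23 of the 37 genes, against 21.5% of all genes tested. The number 4 libraries were already known to stand apart when this test was planned and the genes were chosen, so the count is a description. The 8 smallest p-values belonged to Zfp36, Dusp1, Ier2, Jun, Junb, Fosb, Ppp1r15a and Fos, each with an adjusted p of 0.00196. By role the test called 5 of 6 AP-1 genes (all but Maff), 7 of 8 other transcription factors (all but Csrnp1), 4 of 8 feedback genes, 6 of 7 other early genes (all but Btg1) and 1 of 8 heat shock genes (Dnajb1). The 4 feedback genes called were Dusp1, Dusp2, Ppp1r15a (the GADD34 subunit that restores translation after stress) and Zfp36, while Dusp5, Dusp6, Socs3 and Zfp36l1 were not. With the Tet2KO libraries left out, the test called 30 of the 37, against 55.2% of all genes. With the number 4 libraries left out, it called 0 of the 37 and 0 of all genes (0.0%), with 4 of the 37 and 997 genes at an unadjusted p under 0.05. The count fell to 15 without WT number 4, 14 without Idh1R132H number 4 and 15 without Idh2R140Q number 4. The share over all genes fell as well, from 21.5% to 8.41%, 8.70% and 8.25% in the same order.

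**Figure D1:**
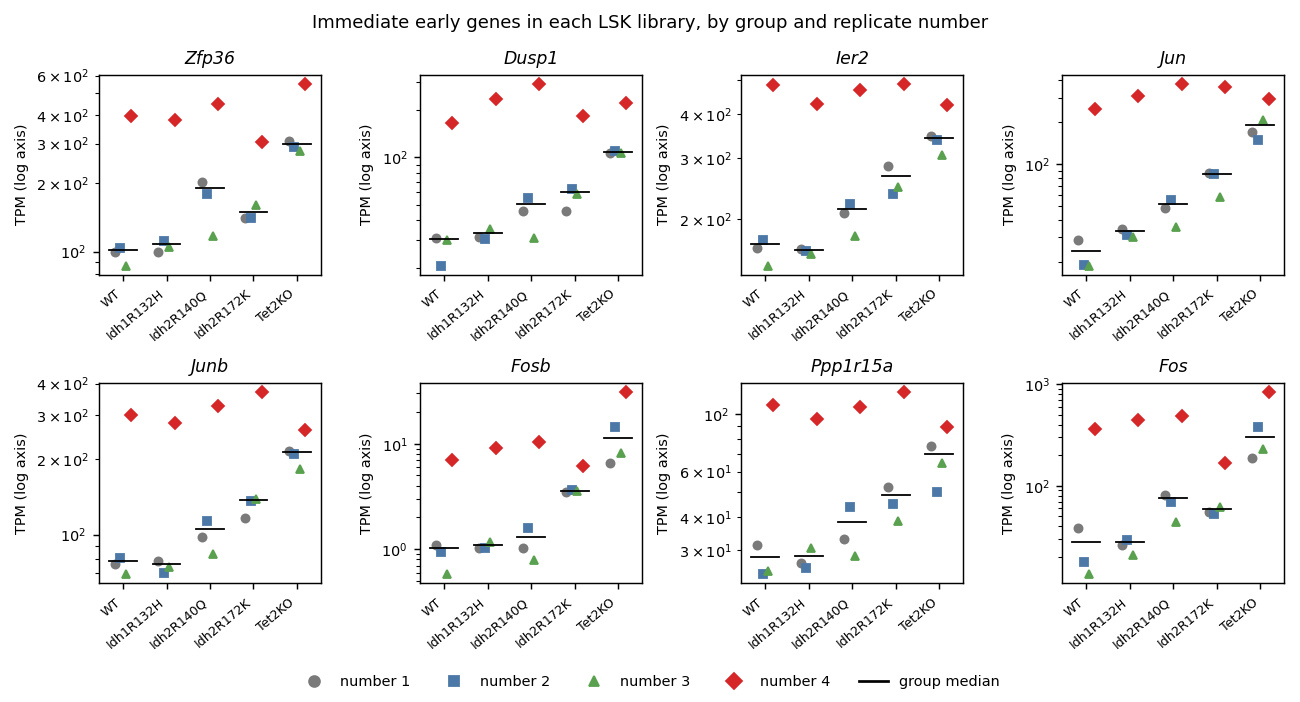
TPM on a log axis for the 8 genes with the smallest p for replicate number, in the 20 libraries by group, with 1 symbol for each number and a line at the group median. Number 4 (red diamonds) is the highest library of every group in all 8 panels, and in WT and Idh1R132H it stands far from a tight set of 3.

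Counted over the 37 genes, number 4 was the highest of its group for 33 in WT (56.9% of all genes), 34 in Idh1R132H (63.5%), 33 in Idh2R140Q (61.0%) and 25 in Idh2R172K (53.8%). In Tet2KO it was the highest for 17 of 37, against 16.4% of all genes. It was the highest in WT and all 3 Idh groups for 23 of the 37, against 35.1% of all genes. At least 2-fold above each of the other 3 in those 4 groups were 6 of the 37, namely Fos, Jun, Junb, Dusp1, Klf2 and Ppp1r15a, against 1.2% of all genes. The median log2 difference of number 4 from the mean of numbers 1 to 3 was 0.81 in WT, 0.81 in Idh1R132H, 1.01 in Idh2R140Q, 0.50 in Idh2R172K and 0.09 in Tet2KO. Over all genes tested it was 0.20, 0.22, 0.25, 0.16 and 0.08 in the same order. Klf2, a transcription factor of quiescent cells, went from 1.21 to 2.60 TPM in WT numbers 1 to 3 to 9.41 TPM in number 4, and from 2.73 to 4.58 TPM to 24.4 TPM in Idh2R140Q. Maff, a small leucine zipper factor, was the exception among the AP-1 and related genes, with 2.37 to 3.27 TPM in WT numbers 1 to 3 and 1.51 TPM in number 4.

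Marker lists of other cells were read beside this pattern. In number 4 the summed TPM of 10 macrophage markers was 152 in WT, within the 137 to 161 of the other 3, and it was the lowest of its group in all 3 Idh groups. The sum of 10 mature neutrophil markers, at 97.0 TPM in WT number 4, also lay within the 60.2 to 130.3 TPM of the other 3. The sum of 9 stroma and endothelium markers was the highest in number 4 in WT (220 TPM against 128 to 164) and in the 3 Idh groups. In all groups that sum came mainly from Pdgfrb and Pecam1. Over all libraries Emcn was at 3.19 to 9.09 TPM, Col1a2 at 0.0879 to 1.09 TPM and Kdr at 0.448 to 0.983 TPM. Cdh5, Cxcl12, Lepr and Col1a1 stayed at or below 0.246 TPM in every library. The mitochondrial share was 1.32 to 1.90% in the number 4 libraries of WT and the Idh groups. Whether these differences play a part in the levels of the early genes was not tested. In bulk RNA, fewer cells of a type and less RNA per cell cannot be told apart.

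**Figure D2:**
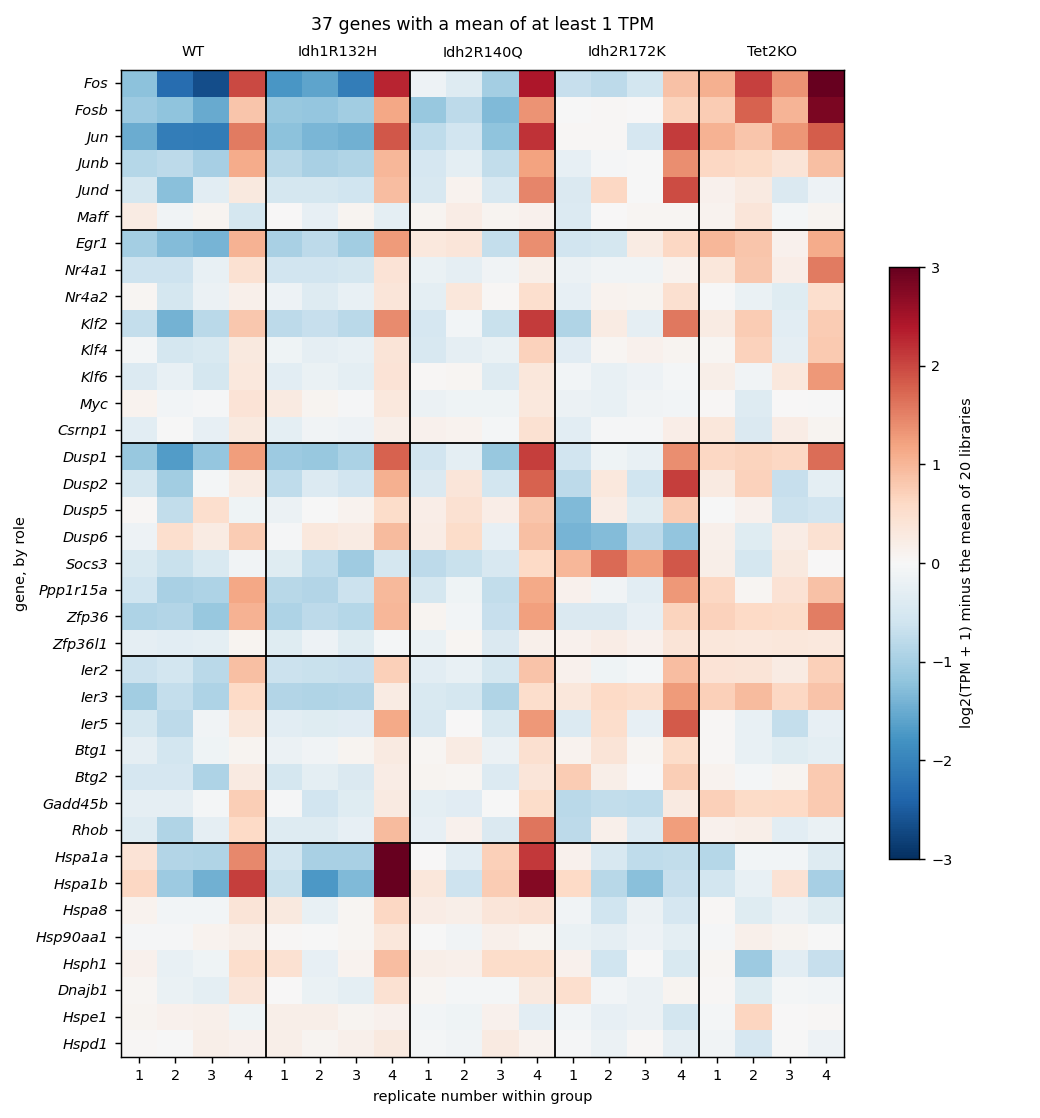
Log2(TPM + 1) minus the gene's mean over 20 libraries (colour, red above and blue below) for the 37 tested genes (rows, by role) in each library (columns, by group and replicate number). The number 4 columns of WT and the Idh groups are red for most early genes, with Maff and Dusp6 of Idh2R172K among the exceptions, and the Tet2KO columns are red for Fos, Fosb and Jun at all 4 numbers.

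With all 20 libraries 4 of the 37 genes rose in Tet2KO against WT and none fell, namely Fosb, Ier3, Nr4a1 and Zfp36l1, against 7.05% of all genes called, 5.02% higher and 2.02% lower. Fosb, an AP-1 subunit, was at 6.59, 14.4, 8.11 and 30.6 TPM in Tet2KO and at 1.11, 0.948, 0.578 and 6.996 TPM in WT, a log2 difference of 2.34 ± 0.65 (SE, adjusted p = 0.0377). The libraries overlapped only through WT number 4. Ier3 (chr17:35821684-35822923, + strand), a regulator of cell survival, was at 220, 258, 206 and 241 TPM against 64.0, 80.5, 69.7 and 202 TPM, with no overlap (log2 difference 1.31 ± 0.35, adjusted p = 0.0338). Nr4a1, the orphan nuclear receptor NUR77, was at 10.4, 14.7, 9.24 and 25.5 TPM against 4.84, 4.82, 6.65 and 11.3 TPM (0.98 ± 0.29, adjusted p = 0.048). Zfp36l1, an RNA-binding relative of Zfp36 that shares exonic bases with an antisense gene model, was at 12.0 to 12.4 TPM against 7.43 to 10.1 TPM, with no overlap (0.52 ± 0.13, adjusted p = 0.0269). Fos differed by 2.96 ± 1.02 (adjusted p = 0.0805) and Jun by 2.28 ± 0.89 (adjusted p = 0.115), and neither passed this test. In both genes WT number 4 lay far above the other 3 WT libraries. A fit of the same libraries with the replicate number as a block called both Fos (2.96 ± 0.45, adjusted p = 0.00166) and Jun (2.28 ± 0.38, adjusted p = 0.00219). That fit called 16 of the 37, against 17.5% of all genes, of which 15 were higher and 1 lower (Hspd1). The numbers do not pair these 2 groups, so the calls with the block are given as an alternative only. Same-numbered libraries of Tet2KO and WT correlated at -0.081 to 0.079, and 2 of 8 libraries correlated best with their own number. Each Tet2KO library lay above each WT library for 2 of the 37 genes (Ier3 and Zfp36l1), against 9.11% of all genes, and below each for 1 (Hspd1), against 4.51%. For Hspd1 the closest libraries nearly tied, at 384.2 TPM in Tet2KO and 384.4 TPM in WT.

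With the number 4 libraries of all groups left out, 16 of the 37 genes rose in Tet2KO and none fell, against 10.2% of all genes called, 9.23% higher and 0.995% lower. The 16 were 4 AP-1 genes, 4 other transcription factors, 4 feedback genes and 4 other early genes, with no heat shock gene. Fos was then at 190.0 to 379 TPM in Tet2KO and at 13.4 to 38.2 TPM in WT, a log2 difference of 3.55 ± 0.34 (adjusted p = 0.000194). Jun differed by 2.95 ± 0.21 (adjusted p = 2.67e-05), Fosb by 2.45 ± 0.23, Dusp1 by 1.97 ± 0.20, Egr1, a zinc finger factor, by 1.89 ± 0.31 and Ier3 by 1.66 ± 0.13. Smaller rises were seen for Zfp36 (1.59), Junb (1.41), Klf2 (1.22), Ppp1r15a (1.20), Ier2 (1.01), Nr4a1 (0.94), Gadd45b (0.83), Btg2 (0.69), Zfp36l1 (0.62) and Klf6 (0.51). Myc, at 449 to 593 TPM in Tet2KO and 547 to 781 TPM in WT over all libraries, was not called.

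The 4 calls over all libraries were sensitive to single libraries, although the differences kept their direction. With 1 library left out the log2 difference was 1.93 to 2.86 for Fosb, 1.14 to 1.68 for Ier3, 0.70 to 1.22 for Nr4a1 and 0.48 to 0.62 for Zfp36l1. None of the 37 genes was called without WT number 1, 2 or 3 or without Tet2KO number 4, 1 was called without Tet2KO number 2, and 9 were called without WT number 4. A fit of the 2 groups alone called 0, with 13 of the 37 genes at an unadjusted p under 0.05. Median-of-ratios scaling called 7, against 19.6% of all genes, of which 5 were higher and 2 lower. It turned the balance over all genes from 712 higher and 287 lower to 986 higher and 1794 lower, while a rescaling without mitochondrial and the 20 most abundant genes gave 1139 and 756. Tet2KO also had higher sums of macrophage markers (198 to 223 TPM against 137 to 161 in WT, none of the 10 genes at 0) and of 8 red cell markers (111 to 146 TPM against 72.6 to 102). Their part in the result was not tested.

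**Figure D3:**
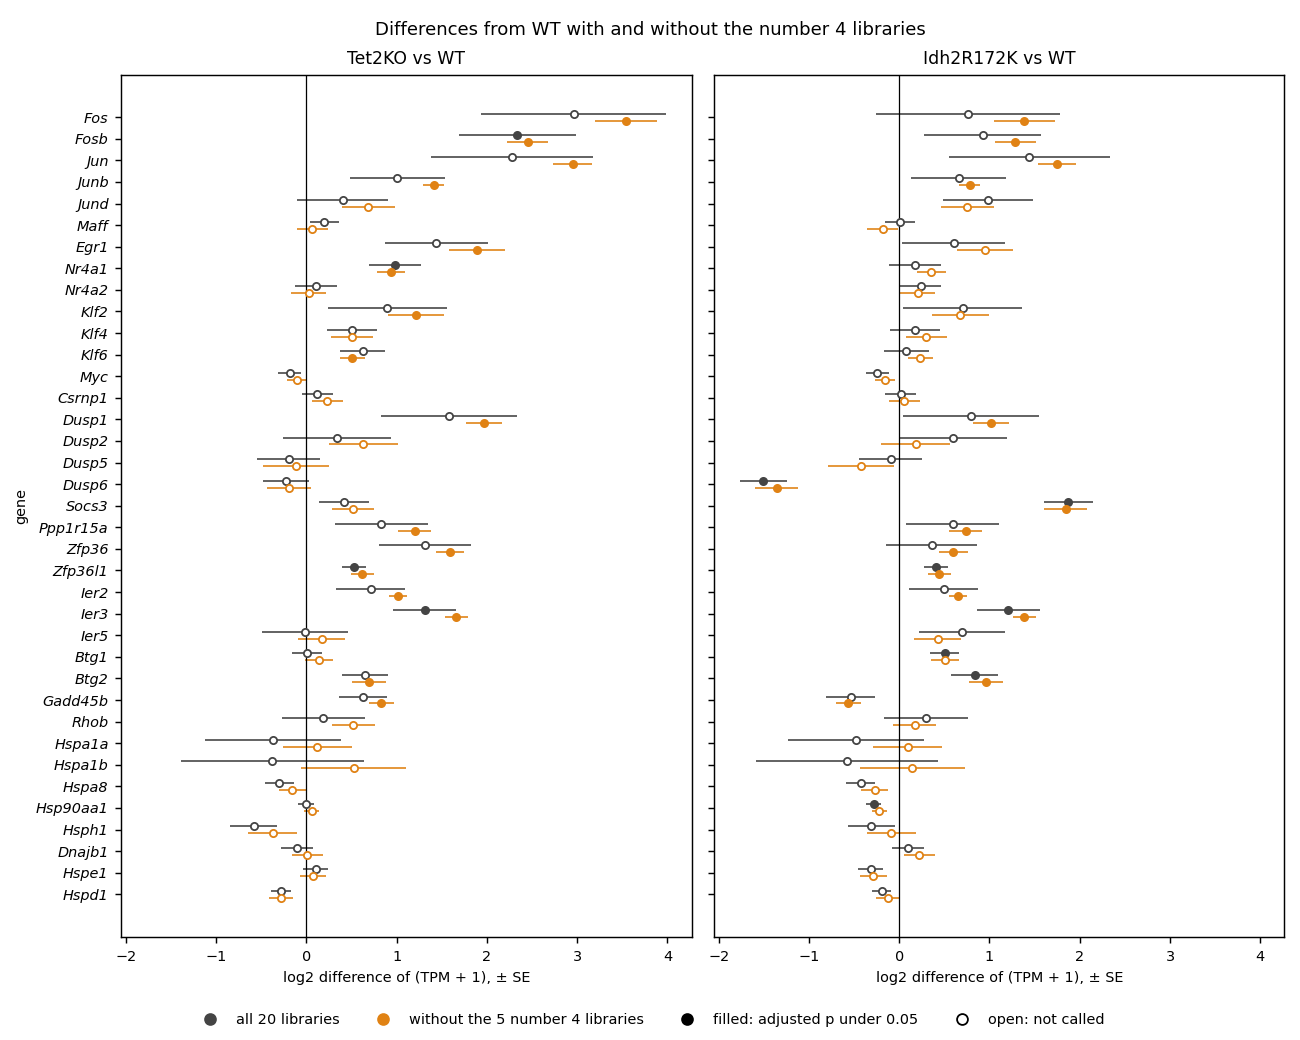
Log2 differences of (TPM + 1) from WT with the SE of the fit as bars, for Tet2KO (left) and Idh2R172K (right), over all 20 libraries (grey) and without the 5 number 4 libraries (orange), with filled points for an adjusted p under 0.05. For Fos in Tet2KO the difference moved from 2.96 to 3.55 and its SE fell from 1.02 to 0.34.

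Idh2R172K differed from WT in 2 feedback genes above all, with Socs3 higher and Dusp6 lower. Of the 37 genes 5 rose and 2 fell, against 15.4% of all genes called, 8.03% higher and 7.33% lower, so the share of called genes was close to that of all genes. Socs3 (chr11:117966079-117970047, - strand) encodes an inhibitor of cytokine receptor and JAK-STAT signalling and is itself a STAT3 target. Its TPM was 61.8, 101, 74.1 and 114 in Idh2R172K against 22.1, 18.8, 21.9 and 28.6 in WT, so that each mutant library lay above each WT library. The means were 87.8 ± 24.0 and 22.8 ± 4.12 TPM (SD, n = 4), a log2 difference of 1.87 ± 0.27 (adjusted p = 7.63e-05). Dusp6 (chr10:99263231-99267489, + strand) encodes a cytoplasmic MAP kinase phosphatase. Its TPM was 22.5, 24.0, 34.7 and 26.4 against 54.3, 86.8, 71.8 and 105, with no overlap. The means were 26.9 ± 5.42 and 79.4 ± 21.5 TPM (SD, n = 4), a log2 difference of -1.51 ± 0.26 (adjusted p = 0.000414). Both calls held under each of 18 other settings, with log2 differences of 1.73 to 2.02 for Socs3 and -1.67 to -1.36 for Dusp6.

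The other 5 calls were smaller. Ier3 was at 171, 201, 192 and 325 TPM in Idh2R172K against 64.0, 80.5, 69.7 and 202 TPM in WT (1.21 ± 0.35, adjusted p = 0.0253). Btg2, an antiproliferative gene, was at 131.8, 87.2, 78.5 and 129 TPM against 53.9, 54.1, 40.5 and 94.1 TPM (0.83 ± 0.26, adjusted p = 0.0331). Its relative Btg1 rose by 0.50 ± 0.16 (adjusted p = 0.0464) and Zfp36l1 by 0.41 ± 0.13 (adjusted p = 0.0428). Hsp90aa1, the inducible HSP90, was lower, at 244 to 270 TPM against 292 to 336 TPM (-0.28 ± 0.08, adjusted p = 0.0288). Each mutant library lay above each WT library for 2 of the 37 genes (Socs3 and Zfp36l1), against 13.0% of all genes, and below each for 3 (Dusp6, Hsp90aa1 and Hspa8), against 9.83%. The count was 2 without WT number 3, 3 without WT number 1, WT number 2 or Idh2R172K number 4, and 4 without Idh2R172K number 2. Median-of-ratios scaling called 10, against 19.6% of all genes, of which 5 were higher and 5 lower, with Gadd45b, Hspa8 and Myc among the lower.

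Without the number 4 libraries 14 of the 37 genes were called in Idh2R172K against WT, 12 higher and 2 lower, against 11.7% of all genes called, 5.97% higher and 5.7% lower. AP-1 genes were then among the rises, with Jun at 58.0 to 86.0 TPM against 18.8 to 28.8 TPM (1.75 ± 0.21, adjusted p = 0.000138), Fos 1.39 ± 0.34, Fosb 1.29 ± 0.23 and Junb 0.78 ± 0.12. Ier3 (1.39), Dusp1 (1.01), Btg2 (0.96), Ppp1r15a (0.74), Ier2 (0.65), Zfp36 (0.60), Zfp36l1 (0.44) and Socs3 (1.84) made up the rest of the rises, and Dusp6 (-1.36) and Gadd45b (-0.56) were lower. Btg1 (0.51, adjusted p = 0.0524) and Hsp90aa1 (-0.22, adjusted p = 0.108) no longer passed. With all libraries and the replicate number as a block, 13 of the 37 were called, against 22.2% of all genes, of which 9 were higher and 4 lower. Jun was among them (1.44 ± 0.38, adjusted p = 0.0128) and Fos was not (0.76 ± 0.45, adjusted p = 0.245). The numbers pair these 2 groups only in part, with 4 of 8 libraries correlating best with their own number. Idh2R172K had lower sums of macrophage markers than WT (74.5 to 95.0 TPM against 137 to 161). Its sums of stroma and endothelium markers were higher (308 to 383 TPM against 128 to 220). That rise came from Pdgfrb, at 254 to 320.1 TPM against 72.2 to 121 TPM in WT. Emcn was lower, at 3.19 to 4.803 TPM against 6.44 to 7.996 TPM, and so was Col1a2, at 0.0879 to 0.162 TPM against 0.373 to 1.09 TPM. Pecam1 overlapped WT (44.9 to 57.5 TPM against 46.3 to 88.5 TPM). The part of the macrophage, stroma and endothelium markers in the differences of the early genes was not tested.

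**Figure D4:**
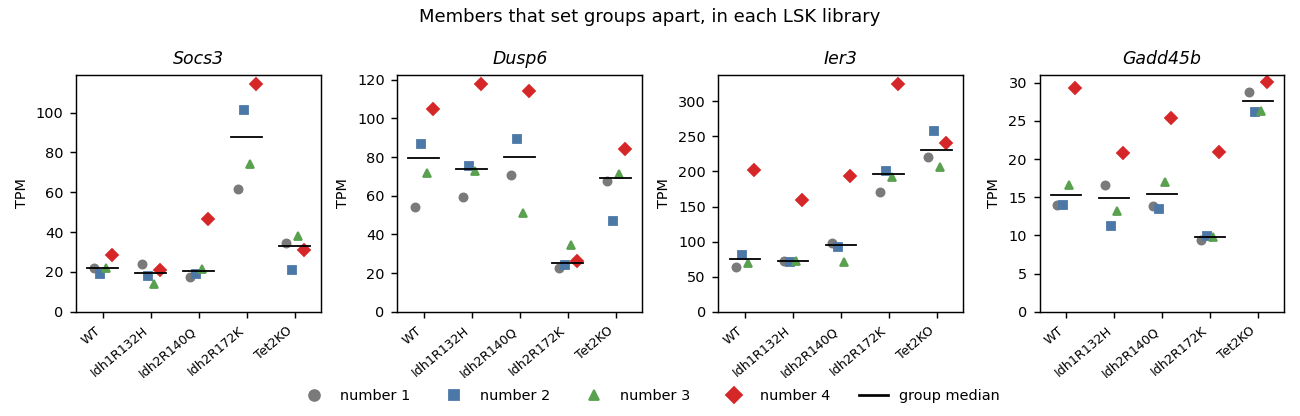
TPM of Socs3, Dusp6, Ier3 and Gadd45b in the 20 libraries by group, with 1 symbol for each replicate number and a line at the group median. Idh2R172K is alone above 60 TPM for Socs3 and alone below 40 TPM for Dusp6, whereas Ier3 is high in both Idh2R172K and Tet2KO.

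Set directly against each other, Tet2KO and Idh2R172K differed in 7 of the 37 genes, against 26.8% of all genes. In Tet2KO 5 were higher, against 11.9% of all genes, and 2 lower, against 14.9%, so these genes were called no more often than others. Gadd45b (chr10:80930073-80932204, + strand), a stress sensor that acts on p38 and JNK signalling, was at 28.8, 26.2, 26.3 and 30.0 TPM in Tet2KO and at 9.38, 9.92, 9.78 and 20.9 TPM in Idh2R172K, with no overlap (1.17 ± 0.27, adjusted p = 0.00456). Dusp6 was at 67.5, 46.8, 71.2 and 83.9 TPM in Tet2KO, all above the 22.5 to 34.7 TPM of Idh2R172K (1.28 ± 0.26, adjusted p = 0.00177). Socs3 was at 34.5, 21.04, 38.0 and 31.2 TPM in Tet2KO, all below the 61.8 to 114 TPM of Idh2R172K (-1.45 ± 0.27, adjusted p = 0.000987). For Dusp6 and Socs3 the Tet2KO libraries thus lay near the WT values. Nr4a1 was higher in Tet2KO by 0.80 ± 0.29 (adjusted p = 0.0473), Hsp90aa1 by 0.28 ± 0.08 (adjusted p = 0.0225) and Hspe1 by 0.42 ± 0.14 (adjusted p = 0.0329), and Btg1 was lower by 0.49 on the log2 scale, at -0.49 ± 0.16 (adjusted p = 0.0348). Each Tet2KO library lay above each Idh2R172K library for 7 of the 37 genes, against 11.7% of all genes, which adds Fos and Fosb to the 5 called higher, and below each for 2 (Socs3 and Btg1), against 13.8%. The count of calls was 3 without Idh2R172K number 2 or 4 and 4 without Tet2KO number 2, in which Hspe1 was at 221 TPM against 135 to 146 TPM in its companions.

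Without the number 4 libraries 12 genes were called between these 2 groups, against 16.9% of all genes, with 11 higher in Tet2KO (11.4% of all genes) and 1 lower (5.54%). Fos was higher by 2.16 ± 0.34, Jun by 1.20 ± 0.21, Fosb by 1.17 ± 0.23, Zfp36 by 0.99 ± 0.16, Dusp1 by 0.95 ± 0.20, Junb by 0.63 ± 0.12 and Ier2 by 0.36 ± 0.10. Gadd45b (1.39), Dusp6 (1.17), Nr4a1 (0.58), Hsp90aa1 (0.28) and Socs3 (-1.33) kept their calls, and Btg1 and Hspe1 did not. Both of these comparisons and those with WT share libraries, so their values are given side by side only.

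The pair of Idh2 alleles differed in 3 of the 37 genes, against 10.5% of all genes. In Idh2R172K 1 was higher, against 3.76% of all genes, and 2 were lower, against 6.74%. Socs3 was higher in Idh2R172K than in Idh2R140Q, where it was at 17.4, 18.9, 21.6 and 46.6 TPM (1.78 ± 0.27, adjusted p = 0.000144). Dusp6 was lower in Idh2R172K, against 71.0, 89.2, 50.8 and 114 TPM in Idh2R140Q (-1.52 ± 0.26, adjusted p = 0.000444). Hspa8 (chr9:40800984-40810087, + strand) was lower in Idh2R172K, at 635, 453, 606 and 482 TPM against 792, 775, 882 and 920 TPM (-0.64 ± 0.16, adjusted p = 0.0117). The libraries of the 2 groups did not overlap for these 3 genes. Over the 37, each Idh2R172K library lay above each Idh2R140Q library for 1 gene, against 7.38% of all genes, and below each for 5 (Dusp6, Hspa8, Hsp90aa1, Hsph1 and Maff), against 9.69%. In these 2 groups same-numbered libraries deviated together, and a fit with the replicate number as a block called 7 genes against 14.6% of all genes, adding Ier3 (1.02), Zfp36l1 (0.32), Gadd45b (-0.48) and Hsp90aa1 (-0.26). Without the number 4 libraries 7 genes were called, against 8.23% of all genes, with 4 higher (Socs3, Ier3, Fosb and Junb, 2.89% of all genes) and 3 lower (Dusp6, Hspa8 and Gadd45b, 5.34%). Median-of-ratios scaling called 4, against 13.8% of all genes, of which 2 were higher and 2 lower, Ier3 being the added one.

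None of the 37 genes was called in Idh1R132H or Idh2R140Q against WT. In Idh1R132H limma called 0, against 0.00705% of all genes (1 gene), with 0 of the 37 and 229 of all genes at an unadjusted p under 0.05. The smallest p-values were those of Btg1 (0.24 ± 0.16), Hsph1 (0.24 ± 0.26) and Socs3 (-0.25 ± 0.27), with adjusted p-values of 1. In Idh2R140Q limma called 0, against 0.0% of all genes, with 1 of the 37 and 407 of all genes at an unadjusted p under 0.05. The 3 smallest p-values there were those of Btg1 (0.37 ± 0.16), Egr1 (1.01 ± 0.57) and Btg2 (0.43 ± 0.26), all with an adjusted p of 0.998. Of the 37 genes 32 lay above 0 in Idh2R140Q, against 71.6% of all genes, with a median of 0.27 against 0.08 on the log2 scale. In Idh1R132H 26 lay above 0, against 65.0% of all genes, with a median of 0.09 against 0.04. Without the number 4 libraries both counts of calls stayed at 0. In Idh1R132H 1 of the 37 and 231 of all genes had an unadjusted p under 0.05, and in Idh2R140Q 9 of the 37 and 303 of all genes. Among the 37, the smallest in Idh2R140Q were those of Jun (1.04 ± 0.21), Zfp36 (0.75 ± 0.16), Fos (1.54 ± 0.34) and Egr1 (1.23 ± 0.31). Each had an adjusted p of 0.99995. In Idh2R172K without number 4 the differences from WT were 1.75, 0.60, 1.39 and 0.95 in the same order. No gene of the 37 had all 4 libraries of a group above or below all 4 of WT, against 0.973% of all genes above and 0.734% below in Idh1R132H, and 1.58% above and 0.423% below in Idh2R140Q. For Egr1 the values were 36.96, 38.1, 17.4 and 78.5 TPM in Idh2R140Q and 13.8, 11.3, 10.5 and 61.3 TPM in WT.

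The heat shock genes followed the early genes only in part. The inducible HSP70 pair Hspa1a (chr17:34969190-34972156, - strand) and Hspa1b (chr17:34956436-34959238, - strand) are near-identical copies, so the split of reads between them is uncertain. Hspa1b was at 6.48, 1.29, 0.800 and 19.4 TPM in WT, 2.07, 0.477, 0.953 and 67.8 TPM in Idh1R132H, and 5.16, 2.20, 7.31 and 31.7 TPM in Idh2R140Q. In Idh2R172K it was at 6.37, 1.76, 1.05 and 2.03 TPM, and in Tet2KO at 2.33, 3.19, 5.55 and 1.44 TPM. Number 4 was thus the highest in 3 groups and not in Idh2R172K or Tet2KO, while Fos was highest in number 4 of all 5. Hspa1a gave the same picture at lower depth, with 5 to 678 reads per library, and its number 4 library held 66.97 times the mean of the other 3 in Idh1R132H and 0.43 times in Idh2R172K. Neither passed the test for replicate number (adjusted p = 0.109 for Hspa1a and 0.115 for Hspa1b), and neither differed between groups.

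Over the 8 heat shock genes number 4 was the highest library for 6 in WT, 7 in Idh1R132H, 5 in Idh2R140Q, 0 in Idh2R172K and 0 in Tet2KO. Dnajb1, the HSP40 partner of HSP70, was the 1 called for replicate number (adjusted p = 0.0225), with 251 TPM in WT number 4 against 157 to 204 TPM. In Idh2R172K the highest Dnajb1 value was that of number 1, at 277 TPM against 171.7 to 205 TPM in the others. Between groups, 1 of the 8 had a log2 difference above 0 in Idh2R172K against WT, where 63.1% of all genes did. The median of the 8 was -0.31, and Hsp90aa1 was the 1 called. In Tet2KO against WT 1 of the 8 was above 0, against 52.8% of all genes, with a median of -0.29, and none was called. Without the number 4 libraries those medians were -0.10 and 0.03, with none called against WT. Hspd1 lay in Tet2KO at 361, 273, 384.2 and 352 TPM, all below the 384.4 to 442 TPM of WT, but with a near tie at the closest libraries. Hspd1 was not called in the fit of group means. It was called with the replicate block (-0.28 ± 0.08, adjusted p = 0.029), although the numbers do not pair these 2 groups.

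**Figure D5:**
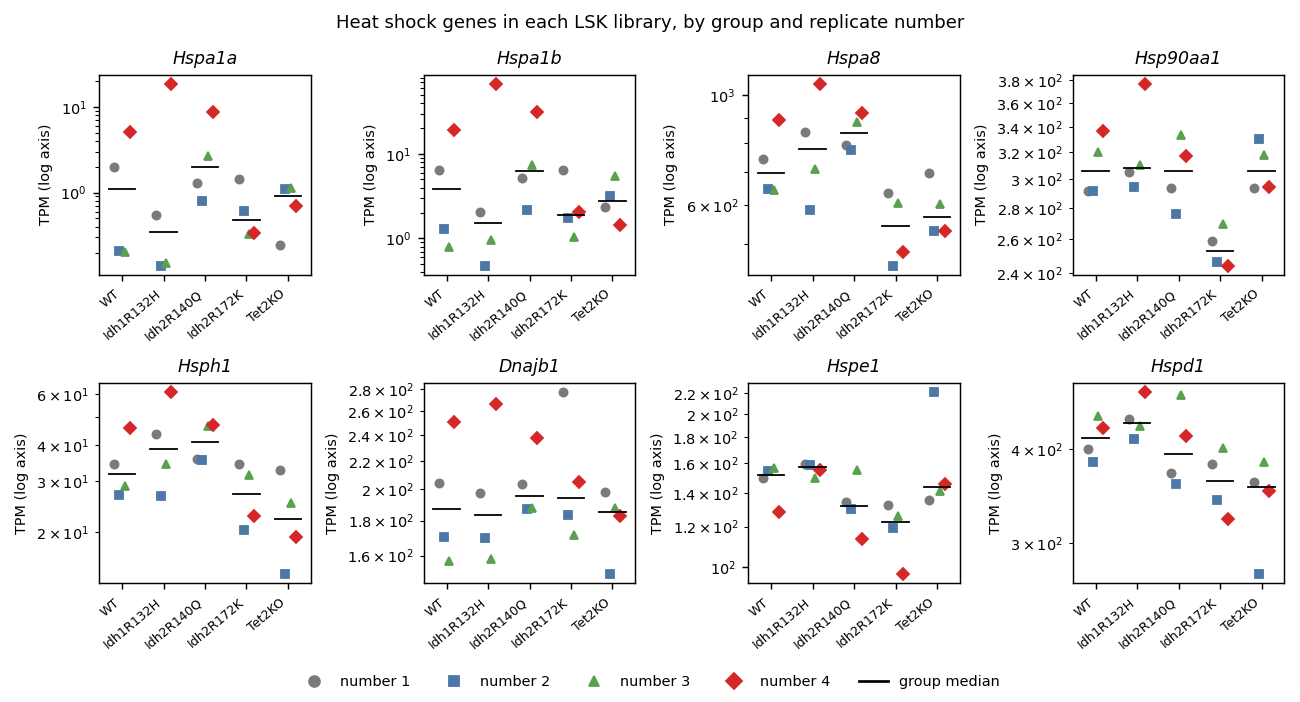
TPM on a log axis for the 8 heat shock genes in the 20 libraries by group, with 1 symbol for each replicate number and a line at the group median. The number 4 libraries lead for Hspa1a and Hspa1b in WT, Idh1R132H and Idh2R140Q, and in no panel do they lead in Idh2R172K.

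The 3 genes that were not tested were near the limit of detection. Egr2, a zinc finger factor, had 2 to 25 reads per library, Egr3 had 0 to 16 with 0 in 7 libraries, and Atf3, a stress-induced leucine zipper factor, had 0 to 52 with 0 in 2 libraries. Atf3 was at 0.380, 0.901, 0.653 and 1.95 TPM in Tet2KO and at 0.151, 0.0647, 0 and 0.509 TPM in WT. These values are given with no test.

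Related genes outside the 40 were read from 3 further lists. Of 31 other immediate early genes 23 were tested. The test for replicate number called 6 of them, against 21.5% of all genes. Number 4 differed from the other 3 by a median log2 of 0.29 in WT, 0.30 in Idh1R132H, 0.37 in Idh2R140Q, 0.33 in Idh2R172K and 0.07 in Tet2KO, beside 0.20, 0.22, 0.25, 0.16 and 0.08 over all genes. In Idh2R172K against WT 3 rose (8.03% of all genes) and 3 fell (7.33%). Among them Crem, a cAMP-responsive transcription factor, was at 9.24 ± 1.38 TPM against 3.97 ± 1.15 TPM (SD, n = 4), a log2 difference of 1.06 ± 0.15 (adjusted p = 7.0e-05). Sgk1, a serum-induced kinase, differed by -0.76 ± 0.13 (adjusted p = 0.000365) and Trib1 by -0.69 ± 0.18 (adjusted p = 0.012). In Tet2KO against WT 2 of the 23 rose (5.02% of all genes), Id2 by 0.67 ± 0.19 (adjusted p = 0.0381) and the kinase gene Pim1 by 0.80 ± 0.23 (adjusted p = 0.0471).

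Of 35 other heat shock and chaperone genes 34 were tested, and 1 rose and 3 fell in Idh2R172K against WT, beside 8.03% and 7.33% of all genes. Hspbp1, an HSP70 cochaperone, was at 159 ± 9.69 TPM against 230 ± 9.12 TPM (-0.53 ± 0.06, adjusted p = 6.9e-06). Serpinh1, the collagen chaperone HSP47, was at 0.347 ± 0.153 TPM against 2.65 ± 0.685 TPM (-1.43 ± 0.18, adjusted p = 1.8e-05). In Tet2KO against WT 1 fell (2.02% of all genes), Hspa4 by 0.67 on the log2 scale, at -0.67 ± 0.19 (adjusted p = 0.0389). The replicate number test called 8 of the 34, against 21.5% of all genes. All 29 kinases and factors upstream of the early genes were tested, and 2 rose in Idh2R172K against WT, beside 8.03% of all genes (Mapk8 by 0.42 ± 0.12 and Rps6ka3 by 0.57 ± 0.18) and 1 in Tet2KO, beside 5.02% (Mapk8 by 0.39 ± 0.12, adjusted p = 0.0492). Between Tet2KO and Idh2R172K 11 of the 29 were lower in Tet2KO and none higher, beside 14.9% of all genes lower and 11.9% higher, with Rps6ka3 at -0.93 ± 0.18 and Mrtfb at -0.70 ± 0.17 among them. The same 29 genes had a median log2 difference of -0.33 there, against -0.06 over all genes. Over all genes Tet2KO number 2 differed from its companions by a median log2 of -0.41. Without that library the all-gene calls between these 2 groups went from 1684 higher and 2119 lower to 1818 higher and 1455 lower. The all-gene median went to 0.04. The 29 genes were not followed without it, so how far their result rests on that library was not tested. The replicate number test called 4 of the 29, against 21.5% of all genes.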

How the data were processed

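The authors deposited TPM values for 46078 Ensembl gene IDs in 20 libraries, each summing to 1000000. Per the submitters' processing notes Trim Galore, STAR, featureCounts and mm10 were used; versions, annotation release and strand setting are not given in the sources used here. Columns were matched by mutation and number; those of Idh2R140Q carry a prefix naming IDH1 with 140Q. GENCODE M21 gave names for 45229 IDs. TPM times exon length gave near-whole reads (90.0 to 91.1% of low values within 0.1), and from them the depth, whose intervals cover counting error only.

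Log2(TPM + 1) was fitted with limma 3.58.1 (R 4.3.3) as 5 group means over 20 libraries, with an intensity trend, 2-sided p-values and Benjamini-Hochberg adjustment over the 14176 genes whose mean reached 1 TPM. Fold changes on this scale understate those of low genes. A gene was called at an adjusted p under 0.05. The fit was tested on simulated data with independent noise in each library. No shift shared by libraries was simulated, so that check does not cover the number 4 libraries or Tet2KO number 2. Tables were handled in Python 3.11.15 with pandas 2.3.3 and numpy 2.4.6, and figures drawn with matplotlib 3.10.9.

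Members and lists were chosen with earlier results of these data known. Those results, in which the number 4 libraries stood apart, were also known when the test for replicate number was planned. The fits without the number 4 libraries rest on the same knowledge. Called members are named in each comparison; with 0 called, the 3 with the smallest p; for replicate number, the 8 with the smallest p. Others are named as values, chosen after these were seen. Same-numbered libraries deviated together (all 4 correlations over 0.1 across genes) in Idh1R132H with WT (0.176 to 0.489) and in Idh2R172K with Idh2R140Q (0.213 to 0.534). By this rule they did not in the other comparisons made here. The number 4 libraries still deviated together in Idh2R140Q with WT (0.451) and in Idh2R172K with WT (0.404). Alternatives are given in the closing section.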

Additional observations from a re-analysis of the deposited data

Results flagged for a closer look

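In 95 sets of 4 libraries (19 named genes in 5 groups) 40 single libraries lay far from their 3 companions, and 39 of the 40 were numbered 4. The 19 genes include the 8 chosen for their difference between numbers, so this count is a description. By the same rule, which chance meets in about 1 in 20 sets, 59 libraries stood apart in the 185 sets of all 37 genes (31.9%) and 12.0% did over all genes tested. The exception was Hspe1 in Tet2KO number 2 (220.9 TPM). In WT number 4 the genes standing apart, each above the other 3 libraries, were Zfp36 (395 TPM), Dusp1 (165 TPM), Ier2 (483 TPM), Jun (247 TPM), Junb (301 TPM), Fosb (6.996 TPM), Ppp1r15a (108 TPM), Fos (361 TPM), Ier3 (202 TPM), Zfp36l1 (10.1 TPM) and Gadd45b (29.3 TPM). In Idh1R132H number 4 they were Zfp36 (381 TPM), Dusp1 (235 TPM), Ier2 (426 TPM), Jun (308 TPM), Junb (279 TPM), Fosb (9.11 TPM), Ppp1r15a (95.6 TPM), Fos (445 TPM), Ier3 (159.7 TPM) and Nr4a1 (10.8 TPM). In Idh2R140Q number 4 they were Dusp1 (294 TPM), Ier2 (467 TPM), Jun (379 TPM), Junb (325 TPM), Fosb (10.5 TPM), Fos (488 TPM) and Socs3 (46.6 TPM). In Idh2R172K number 4 they were Zfp36 (306 TPM), Dusp1 (183 TPM), Jun (359 TPM), Junb (369 TPM), Fosb (6.12 TPM), Ppp1r15a (121 TPM), Fos (167 TPM) and Gadd45b (20.9 TPM). In Tet2KO number 4 they were Zfp36 (552 TPM), Dusp1 (223 TPM) and Btg2 (135 TPM).

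The effects of 2 mutant groups against the same WT libraries differed by a direct test in 10 cases. Between Tet2KO and Idh2R172K the log2 differences were 1.17 for Gadd45b, 1.28 for Dusp6, 0.28 for Hsp90aa1, 0.80 for Nr4a1, -0.49 for Btg1, -1.45 for Socs3 and 0.42 for Hspe1. Between Idh2R172K and Idh2R140Q they were -0.64 for Hspa8, -1.52 for Dusp6 and 1.78 for Socs3.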

How the results depend on the processing

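No difference between groups called over all 20 libraries among the 37 genes changed its direction under any setting run. Only the 37 genes were followed through the settings, not those of the 3 further lists. Counts of called genes among the 37 moved by over 1.5 times as follows, with the share of all genes in brackets. For Idh2R172K against WT (7, 15.4%) the count was 4 with no filter (8.26%), 14 without the number 4 libraries (11.7%), 13 with the replicate block (22.2%), 3 in a fit of the 2 groups (15.5%), 17 (32.7%) without number 4 of WT and the Idh groups and number 2 of Tet2KO, a setting chosen after seeing the data, and 2 to 6 with single libraries left out. For Tet2KO against WT (4, 7.05%) the counts were 1 (2.77%), 16 (10.2%), 16 (17.5%), 0 (0.317%) and 18 (31.8%) in that order, 7 with median-of-ratios scaling (19.6%), and 0 to 9 with single libraries left out. For Tet2KO against Idh2R172K (7, 26.8%) they were 12 without number 4 (16.9%), 12 with the replicate block (37.1%), 4 in a fit of the 2 groups (8.39%), 16 in the added setting (35.1%), and 3 to 7. For Idh2R172K against Idh2R140Q (3, 10.5%) they were 7 without number 4 (8.23%), 7 with the block (14.6%), 9 in the added setting (20.3%), and 2 to 4. For replicate number (23, 21.5%) they were 0 without number 4 (0.0%) and 0 in the added setting (0.0141%), and 14 to 25. Over all genes the fit of 2 groups called 45 for Tet2KO against WT in place of 999, and median-of-ratios scaling called 2780.

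The replicate block changed no call in Idh1R132H or Idh2R140Q against WT, both at 0. In Tet2KO with WT 2 of 8 libraries correlated best with their own number. The count was 4 of 8 in Idh2R172K with WT and 1 of 8 in Tet2KO with Idh2R172K. The numbers thus do not pair these libraries throughout, although the number 4 libraries of Idh2R172K and WT deviated together (correlation 0.404). Calls for Socs3, Dusp6 and Gadd45b between Tet2KO and Idh2R172K held under all 18 settings, and those for Socs3 and Dusp6 also in both other comparisons of Idh2R172K. Each other call between groups among the 37 genes over all 20 libraries was lost under 1 to 10 settings, and the cause was not tested. Hspa1a, Hspa1b, Klf4, Klf2, Maff and Fosb had as few as 5, 16, 22, 32, 43 and 48 reads in a library, which limits their precision.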
